A study of Mus musculus with 11 samples.

Results

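The somatostatin receptor family of the mouse has 5 genes, Sstr1 to Sstr5, which were taken by their symbols from a table of 38283 genes and followed through 11 RNA-seq libraries of sorted duodenal cells. All 5 were in the table and 4 had enough counts to be tested; Sstr4 did not. The epithelium of the duodenum had been digested to single cells and sorted by fluorescence in mice of 2 strains, Neurod1-cre-eYFP and GluVenus. In the first strain a Cre recombinase driven by Neurod1, a transcription factor of hormone-producing gut cells, switches on a yellow fluorescent protein, and in the second a Venus reporter follows the proglucagon gene. The 4 groups were NeuroD1 positive cells (NeuroD1_positive_6360, NeuroD1_positive_6361 and NeuroD1_positive_6362), NeuroD1 negative cells (NeuroD1_negative_6360, NeuroD1_negative_6361 and NeuroD1_negative_6362), Glu positive cells (Glu_positive_5254, Glu_positive_5160 and Glu_positive_4665) and Glu negative cells (Glu_negative_5254 and Glu_negative_4665), and the values of a group are given in this order. All mice were kept on chow with no further treatment in the labels, and the sources used here give no age. Whether a library number stands for 1 animal is not stated, and p-values therefore reflect library-to-library spread, which may be technical. A Cre reporter also marks descendants of cells that once expressed the driver, and a sorted negative population is all that the gate did not take.

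Somatostatin is a peptide of D cells, scattered endocrine cells of the gut lining, which release it onto their neighbours and so restrain the secretion of other hormones and of acid. Its receptors are G protein-coupled receptors that act through Gi and Go proteins. Once bound, they lower cyclic AMP through adenylyl cyclase, open inwardly rectifying potassium channels (GIRK) and close voltage-gated calcium channels through the G beta-gamma dimer, and can engage the phosphatases that bind through SH2 domains. Sstr1 and Sstr4 form one branch of the family by sequence and pharmacology, and Sstr2, Sstr3 and Sstr5, the receptors of octreotide-like drugs, the other. Intestinal D cells make mostly the longer form of somatostatin, for which Sstr5 has a preference.

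The receptors are separate genes on separate chromosomes (GRCm38, GENCODE vM21). Sstr1 (ENSMUSG00000035431) lies on chromosome 12 from 58211772 to 58214444, and Sstr2 (ENSMUSG00000047904) on chromosome 11 from 113619342 to 113626028, both on the forward strand. Sstr3 (ENSMUSG00000044933) lies on chromosome 15 from 78537008 to 78544685 on the reverse strand. Sstr4 (ENSMUSG00000037014) lies on chromosome 2 from 148395344 to 148396767 on the forward strand, and Sstr5 (ENSMUSG00000050824) on chromosome 17 from 25489875 to 25497288 on the reverse strand. Their coding sequences, of 362 (Sstr5) to 428 (Sstr3) residues, are related enough to ask whether reads could be shared. Aligned coding identity ran from 54.9% between Sstr1 and Sstr2 to 66.5% between Sstr1 and Sstr4, with 65.7% between Sstr3 and Sstr5. The longest run shared exactly by any pair was 41 bases, between Sstr3 and Sstr5, and every other pair shared at most 23. None of the 50-base stretches of the 5 genes' transcripts (1375 in Sstr4 to 4269 in Sstr3) occurred in a transcript of another gene. Sstr2 lies inside Slc39a11, a zinc transporter gene on the opposite strand (chromosome 11, 113244853 to 113650079), with 0 exon bases in common. Whether counting used the strand is not given in the sources used here, so reads from introns of Slc39a11 cannot be told apart from Sstr2 reads. Slc39a11, looked at after its values were seen, differed by -0.58 ± 0.56 (log2 ± SE) between NeuroD1 positive and negative cells and by 0.01 ± 0.63 between Glu positive and negative cells (edgeR adjusted p = 0.583 and 0.998).

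Libraries held 2279594 to 5722372 counts, and the receptors took few of them, with 5 to 292 counts per library for all 5 genes together. Levels of 1 gene are given as CPM, counts relative to the TMM-scaled library size, and levels of different genes as CPM per kb of exon. Mitochondrial rRNA (mt-Rnr1, mt-Rnr2) is listed at 0 in 6 libraries and took 27.5% to 33.9% of the counts in the other 5, which were all NeuroD1 libraries, so plain library totals were tried as another scaling. All NeuroD1 positive libraries held counts of both genes. NeuroD1_negative_6361 and NeuroD1_negative_6362 held mt-Rnr1 alone, and NeuroD1_negative_6360 neither. The listing thus also differed between the positive and negative cells of that strain. Of endocrine markers, the summed CPM of Neurod1, Chga, Chgb, Scg2 and Pcsk1 was 39322 to 57876 in NeuroD1 positive, 8688 to 25885 in Glu positive, 1847 to 2206 in NeuroD1 negative and 853 to 1040 in Glu negative cells. Most of the sum was Chgb, with means of 43903 CPM in NeuroD1 positive and 12448 CPM in Glu positive cells. Means of Neurod1 (487 and 461 CPM) and Scg2 (2154.5 and 2298.2 CPM) were alike in these populations. Of the 5 markers, 2 were called higher in NeuroD1 than in Glu positive cells and 0 lower, where 3.18% of all genes were called higher. The negative cells held the markers of enterocytes (1109 to 4737 CPM over both strains, against 165 to 477 in positive cells) and of B and plasma cells (638 to 3253 against 25.3 to 292).

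The first comparison set NeuroD1 positive against NeuroD1 negative cells. All 4 tested receptors were higher in the positive cells, by 4.24 to 5.04 on the log2 scale. Sstr5 and Sstr1 had the highest levels per kb, Sstr2 and Sstr3 lower ones, and Sstr4 had no count in any positive library. Across all genes tested, 14.2% were called in this comparison, 6.57% higher (4.42% with plain library totals) and 7.61% lower. The median log2 difference over all genes was 0.02. The 4 receptors had enough counts to be tested only through positive libraries, as the negative libraries held at most 10 counts of each. Their direction here was thus largely set by the filter, and their number against these shares is no test of the family. The positive and negative libraries did not overlap for any of the 4, which was so for 18.3% of all genes in the higher direction.

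Sstr5, a main inhibitory receptor of insulin and incretin secretion, stood at 38.2, 51.5 and 23.3 CPM in the NeuroD1 positive libraries. In the negative libraries it stood at 1.06, 1.00 and 1.31 CPM. The lowest positive library was thus far above the highest negative one. The difference was 5.04 ± 0.72 on the log2 scale (95% interval 3.53 to 6.54, edgeR adjusted p = 9.92e-05). Sstr1, known also as an autoreceptor on somatostatin-releasing cells of the brain and retina, stood at 16.9, 15.6 and 22.5 CPM in the positive libraries and at 0.35, 0.50 and 0.87 CPM in the negative ones. Every positive library was again above every negative one, and the highest value was in NeuroD1_positive_6362, the library in which Sstr5 was lowest. The difference was 5.01 ± 0.91 (3.11 to 6.92, edgeR adjusted p = 0.000937). These 2 receptors passed under every alternative tried.

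Sstr3, which in neurons and islet cells sits on the primary cilium, stood at 13.6, 16.02 and 10.2 CPM in the positive libraries and at 0.53, 1.51 and 0 CPM in the negative ones. The negative values rest on 3, 3 and 0 counts. The difference was 4.32 ± 1.17 (1.87 to 6.77, edgeR adjusted p = 0.0174). Sstr2, the receptor through which somatostatin restrains glucagon release in the pancreas, stood at 6.98, 9.92 and 5.93 CPM, against 0.53, 0.50 and 0 CPM on 3, 1 and 0 counts. Its difference was 4.24 ± 1.19 (1.75 to 6.73, edgeR adjusted p = 0.0215). Both calls rested on single libraries. Sstr2 lost its call without NeuroD1_positive_6361 (4.01, adjusted p = 0.0596) and without each negative library in turn (3.80 to 4.82, adjusted p up to 0.0857), and Sstr3 without NeuroD1_negative_6360 or NeuroD1_negative_6362 (4.13 and 3.82, adjusted p up to 0.0860). The number of receptors called then fell to 2 without either of these last libraries.

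Sstr4, which is found mainly in the brain, went the other way on very few counts. It had 0 counts in each of the 3 NeuroD1 positive libraries, in all 3 Glu positive and in both Glu negative libraries. The 3 NeuroD1 negative libraries held 7, 1 and 0 counts. Against the floor of 3 counts over the group that a count of 0 allows (0.298 CPM in NeuroD1 positive cells), the level in NeuroD1 negative cells was at least 2.70-fold higher, on counts of which 7 of 8 came from NeuroD1_negative_6360. That figure leaves out the counting error of those 8 counts; with it, the exact (Clopper-Pearson) 95% upper limit of the ratio of positive to negative cells was 0.580. In Glu positive and Glu negative cells the same floor allows up to 0.227 and 0.257 CPM. These limits cover counting error only, and Sstr4 was too low to be tested.

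**Figure D1:**
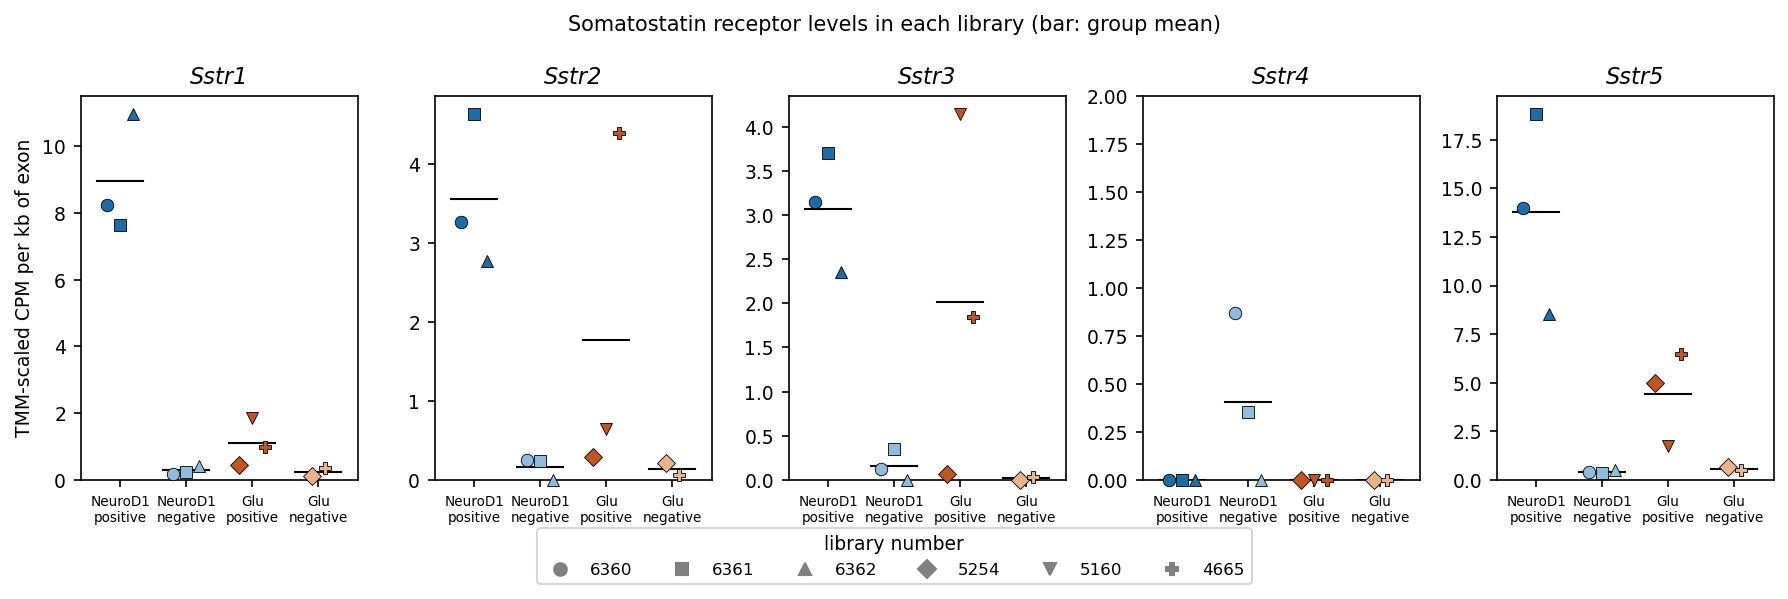
TMM-scaled CPM per kb of exon (y axis, its own range in each panel) of Sstr1 to Sstr5 in each of the 11 libraries, by group; a bar is the group mean and the marker shape gives the library number. For Sstr1, Sstr2, Sstr3 and Sstr5 every NeuroD1 positive point lies above every NeuroD1 negative point, while Sstr4 has points above 0 only in NeuroD1 negative cells.

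The second comparison set Glu positive against Glu negative cells. Sstr5 and Sstr3 were higher in the positive cells, while Sstr1 and Sstr2 did not pass the threshold. Across all genes tested 6.64% were called, 4.22% higher (2.51% with plain library totals, 3.29% with upper quartile scaling) and 2.41% lower. The median log2 difference over all genes was 0.12. Here too the receptors could be tested only through positive libraries, so their direction was largely set by the filter. In scaled CPM the positive and negative libraries did not overlap for any of the 4, as for 15.8% of all genes in the higher direction. For Sstr1, Sstr2 and Sstr3 that rests on the scaling of very few counts. Glu_positive_5254 held 3, 2 and 1 counts of them. Glu_negative_4665 held 5 of Sstr1 and 1 of Sstr3, and Glu_negative_5254 held 2 of Sstr2, and the 95% counting intervals of these pairs overlap. The positive libraries differed widely among themselves.

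Sstr5 stood at 13.7, 4.82 and 17.7 CPM in the Glu positive libraries and at 1.77 and 1.40 CPM in the negative ones. All 3 positive libraries were above both negative ones. The difference was 2.92 ± 0.75 on the log2 scale (1.36 to 4.49, edgeR adjusted p = 0.0243). Sstr3 stood at 0.30, 17.9 and 7.98 CPM in the positive libraries and at 0 and 0.14 CPM in the negative ones. Glu_positive_5254 held a single Sstr3 count, while Glu_positive_5160 held 52 and Glu_positive_4665 held 56. The difference was 6.27 ± 1.58 (2.95 to 9.59, edgeR adjusted p = 0.0232). Since the negative cells held only 1 count, the ratio of the pooled counts, 96.2 with an exact (Clopper-Pearson) 95% counting interval of 16.9 to 3832, shows how loosely its size is set.

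Sstr2 stood at 0.61, 1.38 and 9.40 CPM in the positive libraries and at 0.44 and 0.14 CPM in the negative ones. Glu_positive_4665 held 66 of the 72 Sstr2 counts of the positive cells. The difference was 3.71 ± 1.34 (0.90 to 6.51, edgeR adjusted p = 0.104), and 1.74 without that library. On 72 against 3 counts the pooled ratio was 21.2, with a counting interval of 6.96 to 105. Sstr1 stood at 0.91, 3.79 and 1.99 CPM in the positive libraries and at 0.22 and 0.70 CPM in the negative ones, a difference of 2.12 ± 0.95 (0.12 to 4.12, edgeR adjusted p = 0.188). The interval leaves room for a difference as large as 4.12 for Sstr1.

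With 2 negative libraries, the calls of the Glu comparison hung on each of them. Without Glu_negative_5254 Sstr3 was at 5.67 and Sstr5 at 3.12 (edgeR adjusted p = 0.189 and 0.166), without Glu_negative_4665 at 8.03 and 2.79 (0.155 and 0.232), and no receptor passed in either case. Glu_positive_5254 had the highest summed T cell markers of its group, 1760 CPM against 243 in Glu_positive_5160 and 298 in Glu_positive_4665, and the highest goblet markers, 1402 CPM. The endocrine marker sum, most of it Chgb, was highest in Glu_positive_4665 (25885 CPM) and lowest in Glu_positive_5160 (8688 CPM). The part of these cells in the receptor values was not tested, and in bulk samples fewer cells of a type and less RNA per cell cannot be told apart.

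**Figure D2:**
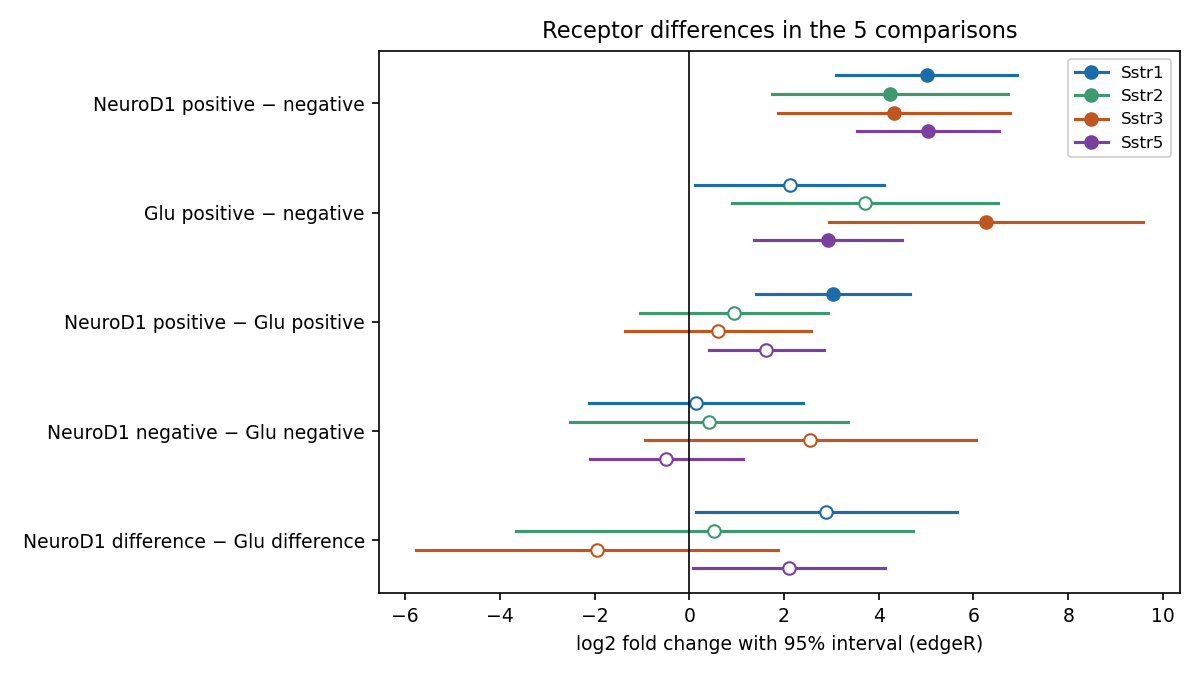
Log2 fold change (x axis) of the 4 tested receptors in the 5 comparisons, with the 95% interval as a line and a filled point where the edgeR adjusted p was under 0.05. All 4 points are filled for NeuroD1 positive against negative cells, 2 (Sstr3 and Sstr5) for Glu positive against negative cells, 1 (Sstr1) between the positive populations, and none in the other comparisons.

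The positive populations of both strains were then set against each other. Sstr1 was higher in NeuroD1 positive than in Glu positive cells, by 3.04 ± 0.77 on the log2 scale (1.42 to 4.66, edgeR adjusted p = 0.0204), and the libraries did not overlap, with 15.6 to 22.5 CPM against 0.91 to 3.79 CPM. It was the 1 receptor of 4 that passed, where 8.13% of all genes were called, 3.18% higher (1.97% with plain library totals) and 4.95% lower. Its value was 2.64 with plain library totals (adjusted p = 0.0508), which moved the median of all genes to -0.51 from -0.14. It lost its call without NeuroD1_positive_6360 (3.10, adjusted p = 0.0536), NeuroD1_positive_6362 (2.87, adjusted p = 0.0793) or Glu_positive_5254 (2.69, adjusted p = 0.0597). All NeuroD1 positive libraries hold counts of mitochondrial rRNA and no Glu library does, so the strain and what set that difference between the libraries cannot be told apart. With these rRNA genes left out Sstr1 was at 3.07 (adjusted p = 0.0197).

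Sstr5 was at 23.3 to 51.5 CPM in NeuroD1 positive and at 4.82 to 17.7 CPM in Glu positive cells. The libraries did not overlap, as for 11.4% of all genes in that direction, and the difference of 1.63 ± 0.58 (0.41 to 2.84) did not pass in edgeR (adjusted p = 0.0907). It passed in DESeq2 (1.61, adjusted p = 0.0461) and without Glu_positive_4665 (2.02, edgeR adjusted p = 0.0415). Sstr2 (0.94 ± 0.95, interval -1.05 to 2.93) and Sstr3 (0.60 ± 0.93, interval -1.36 to 2.57) overlapped between the populations (edgeR adjusted p = 0.573 and 0.729). Their intervals hold differences of several-fold in favour of NeuroD1 positive cells and smaller ones in favour of Glu positive cells.

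Between the negative populations no receptor passed, where 0.488% of all genes did (0.363% higher and 0.126% lower), and none had an unadjusted p under 0.05 in edgeR or a call in DESeq2 or limma voom. With 1 to 18 counts per group for each tested receptor, only large differences were detectable. Sstr5, the best covered, was at 1.00 to 1.31 CPM in NeuroD1 negative and at 1.40 to 1.77 CPM in Glu negative cells, a difference of -0.48 ± 0.77 (edgeR adjusted p = 0.938). Whether the gain in positive over negative cells differed between the strains was tested as an interaction. No receptor passed, where 0.112% of all genes did (0.0907% higher and 0.0209% lower), nor in DESeq2 or limma voom. Sstr1 (2.89 ± 1.32, interval 0.14 to 5.65) and Sstr5 (2.11 ± 0.97, interval 0.09 to 4.13) had unadjusted p = 0.0406 and 0.0418 in edgeR and adjusted p = 0.434 and 0.438. Sstr2 was at 0.53 ± 2.00 and Sstr3 at -1.95 ± 1.82. A difference between the strains in this gain was therefore not shown for any receptor.

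The make-up of the family was next compared on the scale per kb of exon. In NeuroD1 positive cells the order was Sstr5 (13.8 ± 5.16 CPM per kb, SD, n = 3), Sstr1 (8.96 ± 1.77), Sstr2 (3.55 ± 0.964), Sstr3 (3.07 ± 0.680) and Sstr4 (0). Sstr5 and Sstr1 overlapped over libraries, at 8.53 to 18.9 and 7.65 to 10.98 CPM per kb, and so did Sstr2 and Sstr3, at 2.77 to 4.63 and 2.35 to 3.71. The first pair lay above the second in every library. In NeuroD1_positive_6362 Sstr1 (10.98) was above Sstr5 (8.53), while in the other two Sstr5 was the higher. NeuroD1_positive_6362 also had the highest somatostatin level of its group, and a link between the levels of Sst and Sstr1 was not tested.

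In Glu positive cells the order of the means was Sstr5 (4.41 ± 2.40 CPM per kb), Sstr3 (2.02 ± 2.04), Sstr2 (1.77 ± 2.27) and Sstr1 (1.09 ± 0.711), and all neighbours in it overlapped. Sstr5 led in Glu_positive_5254 (4.996) and Glu_positive_4665 (6.46) and Sstr3 in Glu_positive_5160 (4.15). Summed over the family, the level was 29.4 ± 5.14 CPM per kb in NeuroD1 positive, 9.29 ± 4.01 in Glu positive, 1.42 ± 0.459 in NeuroD1 negative (n = 3 each) and 0.957 ± 0.00647 in Glu negative cells (n = 2). These sums rest on 742, 392, 34 and 28 counts.

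As shares of that sum, Sstr5 took 45.8% ± 10.1, Sstr1 31.8% ± 11.6, Sstr2 12.0% ± 1.15 and Sstr3 10.4% ± 0.746 in NeuroD1 positive cells. The shares of Sstr2 (11.2% to 13.3%) and Sstr3 (9.56% to 10.985%) hardly moved between these libraries, and the spread lay in Sstr1 (22.0% to 44.6%) and Sstr5 (34.6% to 54.1%). Glu positive cells had no such common make-up. Sstr5 took 86.2%, 21.0% and 47.3% of the family in the 3 libraries, Sstr3 took 1.21%, 49.3% and 13.5%, and Sstr2 reached 32.1% in Glu_positive_4665. Sstr1 ranged from 7.13% to 22.0%, below its share in 2 of the 3 NeuroD1 positive libraries.

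**Figure D3:**
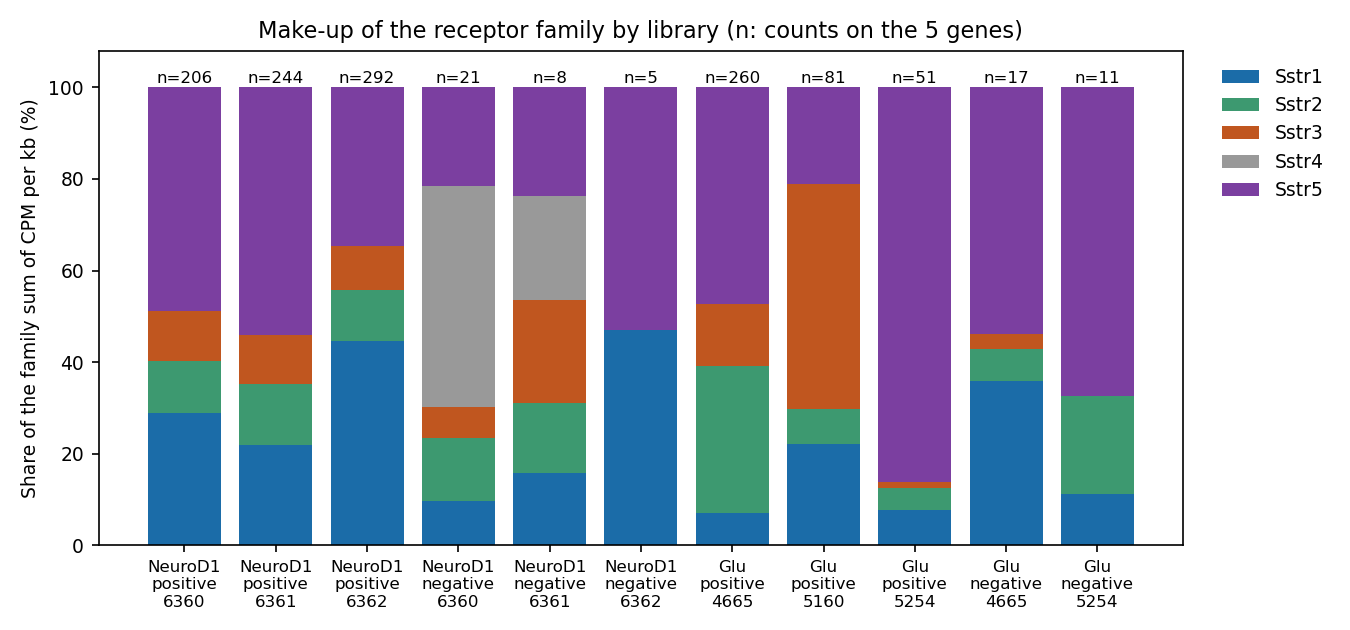
Share of each receptor in the family's summed CPM per kb (y axis, percent) in each library, stacked to 100, with n the counts on the 5 genes in that library. NeuroD1 positive libraries have 206 to 292 counts and similar shares of Sstr2 and Sstr3, Glu positive libraries have 51 to 260 counts and differ from each other, and the negative libraries rest on 5 to 21 counts.

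The ligand was set beside the receptors. Sst, the somatostatin gene, stood at 21849, 17003 and 39507 CPM in the NeuroD1 positive libraries and at 1594, 2000 and 2083 CPM in the negative ones, a difference of 3.79 ± 0.45 (edgeR adjusted p = 1.87e-05). In Glu cells it stood at 147, 177 and 87.7 CPM in the positive libraries and at 98.6 and 259 CPM in the negative ones, which overlap (-0.39 ± 0.45, edgeR adjusted p = 0.646, and 0.46 without Glu_negative_4665). Between the positive populations Sst differed by 7.58 ± 0.53 (edgeR adjusted p = 3.79e-08), more than any receptor did. Cort, the gene of the related ligand cortistatin, is at 0 counts in all 11 libraries. NeuroD1 positive cells thus held both the ligand's and the receptors' transcripts. Glu positive cells held receptor transcripts with Sst at the level of the Glu negative cells. Sst also differed between the negative populations. It was called higher in NeuroD1 negative than in Glu negative cells, by 3.40, and by 2.84 to 4.25 with a library left out. The difference in Sst between the strains was thus not confined to the positive cells. The D cell markers Sst and Hhex summed to 17030 to 39591 CPM in NeuroD1 positive cells and to 88.3 to 179 CPM in Glu positive cells. Which cells of the bulk carry which receptor was not tested.

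Promoter sequence from RefSeq (GRCm38.p6), the 250 bases before the transcript start, was at hand for Sst, Sstr2, Sstr3 (2 starts) and Sstr4, and not for Sstr1 and Sstr5. GENCODE vM21 places part of this sequence in the gene's own exons. That holds for 114 bases of the Sst window, 33 of the Sstr4 window and all 250 of the Sstr3 window at chr15:78544346-78544595. Distances below count from the RefSeq start. The somatostatin gene is the textbook target of CREB, the factor activated by cyclic AMP, which binds the palindrome TGACGTCA (the CRE). Both strands were searched for this motif, for the E-box CAGATG bound by NEUROD1 and for the TATA box TATAAA, which do not overlap one another. The CRE was in the window of Sst, 48 bases before the start, and of Sstr2, 58 bases before it, and in 1.55% of 32851 mouse promoter windows. Both sites are printed with the CRE in capitals.
Sst: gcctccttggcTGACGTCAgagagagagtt
Sstr2: ccaagctgccgTGACGTCAcgggcgggggc
They lie at chr16:23890874-23890903 on the reverse strand and chr11:113619258-113619287 on the forward strand. The windows of Sstr3 and Sstr4 did not hold the CRE. None of the 5 windows held CAGATG (14.4% of all windows do) or TATAAA (12.4%). The Sstr2 window (chr11:113619077-113619326, forward strand) is shown whole, again with the CRE in capitals, because it is the receptor promoter with the match. It has 63.6% G and C and 18 CpG, against medians of 52.4% and 6 over all windows.
Sstr2 promoter: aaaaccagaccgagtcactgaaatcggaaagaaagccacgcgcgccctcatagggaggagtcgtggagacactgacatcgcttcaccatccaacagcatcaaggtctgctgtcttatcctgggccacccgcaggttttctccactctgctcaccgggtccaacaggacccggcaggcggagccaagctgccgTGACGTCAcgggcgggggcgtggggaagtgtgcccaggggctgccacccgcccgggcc
A match is a description of the sequence and no measure of binding.

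Genes of the receptors' signalling pathway were followed from lists, with the same fit and adjusted p-values over all genes. Over all genes tested, 6.57% were called higher and 7.61% lower in NeuroD1 cells, and 4.22% and 2.41% in Glu cells. Of the 5 alpha subunits of Gi and Go proteins, the direct partners of the receptors, 3 were higher in NeuroD1 positive cells and 0 lower (median 2.16). Gnao1, the Go subunit, went from 17.4 ± 3.47 to 260 ± 55.7 CPM (SD, n = 3 each), a log2 difference of 3.91 ± 0.39 (edgeR adjusted p = 3.40e-06). Gnai1 differed by 2.50 ± 0.43 and Gnaz, the pertussis-toxin-resistant member, by 2.16 ± 0.69. The same 3 were higher in Glu positive cells, with Gnai1 at 3.86 ± 0.53, Gnao1 at 3.77 ± 0.46 and Gnaz at 2.90 ± 0.82. In NeuroD1 cells Gnaz lost its call with plain library totals (1.84, adjusted p = 0.0602), with RLE scaling (adjusted p = 0.0562), in limma voom (2.06, 0.0885) and without any 1 of the NeuroD1 libraries but NeuroD1_positive_6360 (1.83 to 2.29, adjusted p up to 0.145). In Glu cells it was 1.36 (adjusted p = 0.173) without Glu_positive_5254, and it also missed the threshold with plain totals, upper quartile scaling, limma voom, the groups alone and a replicate block (up to 2.93, adjusted p up to 0.130) and without either Glu negative library (2.49 and 3.44, adjusted p up to 0.300) or any 1 of 3 NeuroD1 libraries (2.89 to 2.90, up to 0.0567).

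Of the G beta and gamma subunits, which carry the signal to ion channels, 2 of 10 tested were higher in each strain and 0 lower. They were Gng4, at 4.40 ± 0.36 in NeuroD1 and 3.32 ± 0.40 in Glu cells, and Gng12, at 1.01 ± 0.32 and 1.47 ± 0.37. Gng12 lost its call in NeuroD1 cells with plain library totals (0.74, adjusted p = 0.189), RLE scaling (0.95, 0.0618) and DESeq2 (0.95, 0.0502) and without any 1 of the NeuroD1 libraries but NeuroD1_negative_6362 (0.84 to 1.13, up to 0.169). In Glu cells it lost it with plain totals (1.14, 0.102), with the groups alone (1.42, 0.137) and without either negative library (1.88 and 1.15, up to 0.294). All 3 GIRK potassium channel subunits that could be tested were higher in both strains, with medians of 4.51 and 4.54. Kcnj3 went from 1.97 ± 0.854 to 62.6 ± 27.7 CPM in NeuroD1 cells (4.92 ± 0.60) and from 3.03 ± 0.719 (n = 2) to 84.4 ± 44.0 CPM in Glu cells (4.80 ± 0.68). Kcnj5 was at 4.51 ± 0.76 and 3.63 ± 0.88 and Kcnj6 at 4.14 ± 0.78 and 4.54 ± 0.96. In Glu cells only 1 of the 3, Kcnj3, passed without either negative library. Of 5 high-voltage calcium channel alpha subunits, the other channels under Gi/o control, Cacna1a (P/Q type) was higher by 4.06 ± 0.37 and 3.45 ± 0.41 and Cacna1c (L type) by 2.02 ± 0.60 and 3.78 ± 0.75, while Cacna1e (R type) was lower in Glu positive cells (-4.12 ± 0.82). The NeuroD1 call of Cacna1c was lost with plain library totals (1.70, adjusted p = 0.0757), in limma voom (2.01, 0.0815) and without any 1 of the NeuroD1 libraries but NeuroD1_positive_6361 (1.82 to 2.08, up to 0.103), and its Glu call without Glu_negative_5254 (3.28, 0.0992). The call of Cacna1e was lost without Glu_negative_4665 (-3.11, 0.144).

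Adenylyl cyclases, the enzymes that Gi inhibits, moved in both directions, 3 of 8 higher and 1 lower in NeuroD1 cells and 2 higher and 1 lower in Glu cells. Adcy2 was higher in both (3.87 ± 0.54 and 4.15 ± 0.62). Adcy8, a calcium-stimulated cyclase, was higher in NeuroD1 cells (4.58 ± 0.82), and between the positive populations it differed by 5.44 ± 0.86 (edgeR adjusted p = 0.000812). Adcy1, also stimulated by calcium, was higher in Glu cells by 4.53 ± 1.00 and in NeuroD1 cells by 2.94 ± 0.78. Without Glu_positive_5254 its Glu value was 2.27 (adjusted p = 0.0149), and the call was lost in limma voom (3.41, 0.0825), with the groups alone (4.47, 0.0513) and without either Glu negative library (4.05 and 5.07, up to 0.158). The NeuroD1 call was lost without NeuroD1_negative_6360 (2.78, 0.0730). Adcy7, a cyclase of blood cells, was lower in both positive populations (-3.48 ± 0.93 and -3.22 ± 0.86), as were the summed B, T and myeloid markers in NeuroD1 cells (5.88 to 51.5 CPM per list in positive and 110 to 1886 CPM in negative libraries). Its calls were lost in limma voom in NeuroD1 cells (-3.09, adjusted p = 0.0819) and without single libraries in both strains (-3.73 to -2.79 on 3 libraries in NeuroD1 cells and -3.54 to -2.82 on 4 in Glu cells, up to 0.238).

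Of 7 arrestins and receptor kinases, which silence active receptors, 0 were higher in either strain, and Arrb1 alone was lower, in NeuroD1 cells (-1.45 ± 0.47, lost without any 1 of 7 libraries). Over all genes 14.2% were called in either direction in NeuroD1 cells and 6.64% in Glu cells, so these few calls are no result about the list. Of 3 phosphatases, Ptpn6, which is abundant in blood cells, was lower in NeuroD1 cells (-2.35 ± 0.58, and -2.07 with adjusted p = 0.0542 without NeuroD1_positive_6361). Of 15 tested RGS proteins, which end the G protein's active state, 4 were higher and 2 lower in NeuroD1 cells and 2 higher and 1 lower in Glu cells. Rgs4 (3.66 ± 0.45) and Rgs17 (3.84 ± 0.84) were higher in NeuroD1 positive cells, Rgs17 (4.60 ± 0.98) and Rgs7 (3.52 ± 0.75) in Glu positive cells. Rgs1, a lymphocyte gene, was lower in NeuroD1 positive cells (-5.06 ± 0.71) and Rgs3 in Glu positive cells (-2.26 ± 0.63). Without Glu_positive_5254 the Glu value of Rgs17 was 2.15 (adjusted p = 0.0129), and its call was lost in limma voom (3.32, 0.0774). Neither Rgs17, Rgs7 nor Rgs3 passed in Glu cells without either Glu negative library, Rgs7 was lost with the groups alone (3.48, 0.0682), and Rgs3 without any 1 of 7 libraries. Rgs4 was also higher in NeuroD1 than in Glu positive cells, by 2.37 ± 0.42 (edgeR adjusted p = 0.00196).

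**Figure D4:**
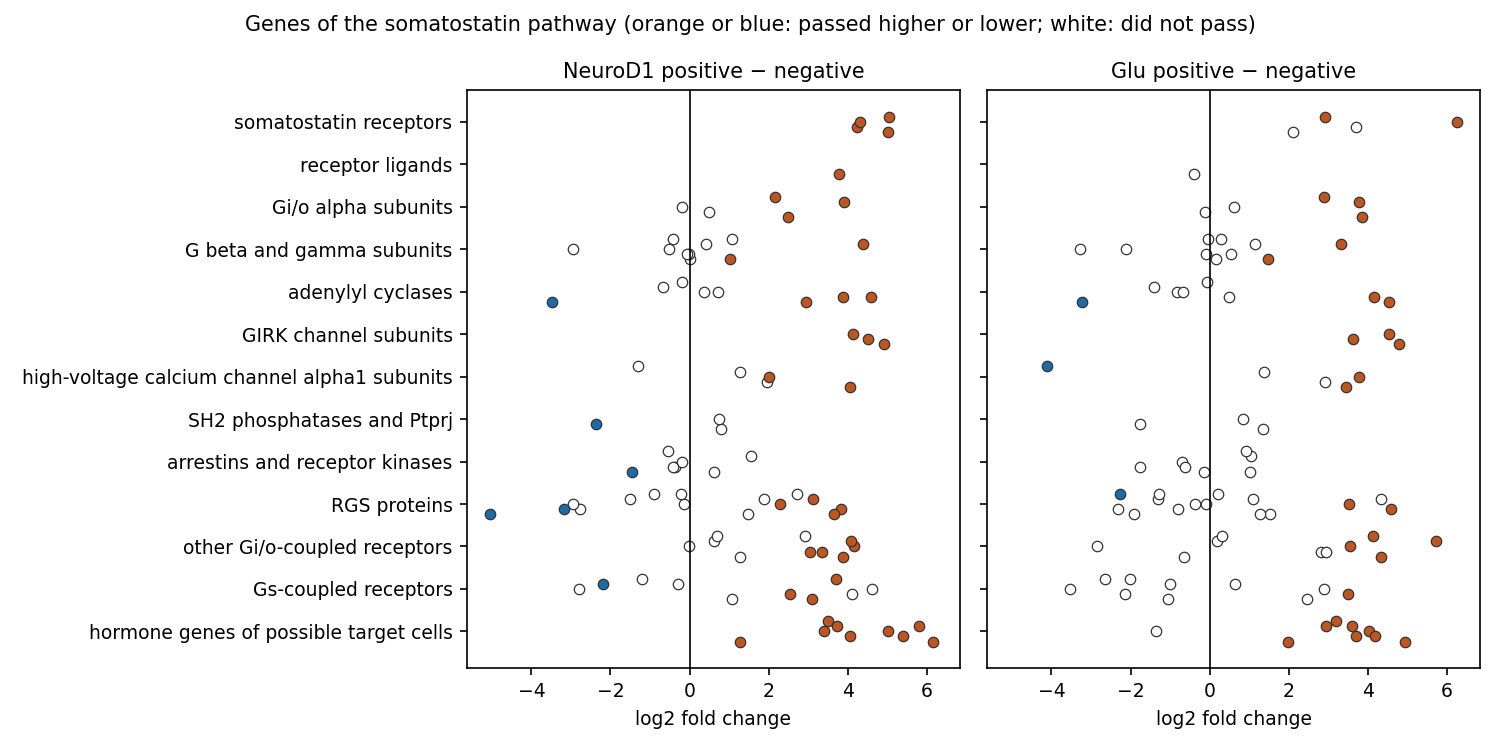
Log2 fold change of the genes of the pathway lists in NeuroD1 positive against negative and Glu positive against negative cells; orange is called higher, blue called lower and white not passed. GIRK subunits are all orange in both comparisons, and arrestins and receptor kinases are all white but for Arrb1 in NeuroD1 cells. Over all genes tested, 14.2% were called in the NeuroD1 and 6.64% in the Glu comparison.

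Other receptors that act through Gi/o were compared with the somatostatin receptors. Of 22 listed, 10 had enough counts, and 5 were higher in NeuroD1 positive and 4 in Glu positive cells, with 0 lower (medians 2.99 and 2.88). Over all genes 6.57% and 4.22% were called higher in these comparisons. The cannabinoid receptor Cnr1 (4.17 ± 0.66), the serotonin receptor Htr1d (4.09 ± 1.19) and the galanin receptor Galr1 (3.87 ± 0.73) led in NeuroD1 cells. Htr1d (5.73 ± 1.41), Galr1 (4.34 ± 0.85) and the GABA-B subunit Gabbr2 (4.14 ± 1.18) led in Glu cells, and 0 of the list passed without either negative library. In NeuroD1 cells 2 to 6 passed with a library left out. Htr1d was 3.04 (adjusted p = 0.0937) in Glu cells without Glu_positive_5254 and missed the threshold in limma voom in both strains (adjusted p = 0.171 in NeuroD1 and 0.132 in Glu cells). Without any 1 of 4 NeuroD1 libraries it was at 3.22 to 4.65 in NeuroD1 cells (up to 0.116). Gabbr2 missed the threshold in 5 other settings, plain totals among them (3.96, 0.0683), and without any 1 of 8 libraries. Of 10 tested Gs-coupled receptors, which raise cyclic AMP, 3 were higher and 1 lower in NeuroD1 cells, among them Glp1r (3.70 ± 0.73), Adora2a (3.09 ± 0.94) and Gpr119 (2.55 ± 0.53). In Glu cells Gpr119 alone passed (3.50 ± 0.60). Between the positive populations Glp1r was higher in NeuroD1 cells (5.21 ± 0.80) and Gpr119, a lipid receptor, in Glu cells (-2.01 ± 0.48), with edgeR adjusted p = 0.000633 and 0.0139. The call of Gpr119 between them was lost without NeuroD1_positive_6362 (-1.73, adjusted p = 0.0776), and Adora2a in NeuroD1 cells without any 1 of 4 libraries (2.48 to 3.06, up to 0.155). In Glu cells Gpr119 lost its call without Glu_negative_4665 (3.22, 0.0682). Of 9 hormone genes of possible target cells, 9 were higher in NeuroD1 positive and 8 in Glu positive cells. With a library left out these counts were 8 to 9 and 5 to 8. Gcg, the proglucagon gene whose reporter defined the Glu gate, is on this list, so its direction in Glu cells follows from the sort.

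The genes with the most similar profile over the 11 libraries were found by the root mean square difference of log2 CPM, each gene centred on its own mean, among 14331 other genes. For Sstr1 they were Amigo2 (0.42), Pde11a (0.44), a phosphodiesterase, and Rgs4 (0.47), against a median over all genes of 1.95. For Sstr2 they were Trim62 (0.43), Zfp618 (0.46) and Stx1a (0.46), a syntaxin of vesicle fusion, against 1.77. For Sstr5 they were Pla2g2d (0.43), Tm4sf4 (0.44) and Gsdma (0.46), against 2.07. Sstr3 had no gene as close, with Tmem44 (0.64), Shisal1 (0.66) and the Gi-coupled glutamate receptor Grm4 (0.69), against 2.24. Among the receptors Sstr2 and Sstr5 were nearest (0.86) and Sstr3 and Sstr5 farthest (1.43). These distances share the libraries and their depth, and for low genes they carry counting noise.

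Markers of the other cells that the gates could hold were set beside the receptors. The 7 markers of enteric neurons and glia, cells that also use somatostatin receptors, summed to 261 to 477 CPM in NeuroD1 positive and 138 to 392 CPM in Glu positive cells, against 38.7 to 41.5 and 11.9 to 16.1 CPM in the negative cells. That list holds Snap25, which endocrine cells also express. Of its defining genes, Sox10 and S100b were at 0 in every NeuroD1 positive library, and Tubb3, Sox10 and S100b in every Glu positive library. Enterocyte, goblet, Paneth, B and plasma cell and myeloid markers were each lower in every NeuroD1 positive library than in every NeuroD1 negative one. In Glu cells the goblet markers overlapped between the groups, at 297 to 1402 CPM in positive and 1364 to 1832 CPM in negative libraries. So did the T cell markers (243 to 1760 against 681 to 713 CPM), the Paneth markers (at most 229 against at least 208 CPM), the stromal and muscle markers (54.3 to 309 against 287 to 392) and the tuft markers (5.55 to 59.9 against 47.3 to 71.7). Enterocyte, B and plasma cell, myeloid and endothelial markers were lower in every Glu positive than in every Glu negative library. The part of any single cell type in the receptor values was not tested.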

How the data were processed

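The labels' protocols give 2 ng of total RNA per library, amplified with the Ovation RNAseq system v2. Per the submitters' processing notes, the authors used CASAVA, TopHat2 (2.1.0) and Cufflinks (2.2.1) on GRCm38; the annotation release and the strand setting were not stated. The values deposited by the authors are expected counts per gene, unscaled and not whole in 848 genes, and were rounded here. No columns were left unused. In edgeR 4.0.16 (R 4.3.3), filterByExpr kept 14332 genes, TMM scaled the libraries, and the quasi-likelihood test was fitted to 4 group means over all 11 libraries. Calls were made at a Benjamini-Hochberg adjusted p under 0.05. SE is the log2 difference divided by the square root of F. Symbols and exon lengths came from GENCODE vM21. Replicates differed beyond sampling noise (chi-square per degree of freedom 15.3 to 135). The highest values, 127 and 135, were the pairs with NeuroD1_negative_6360, against 17.7 for the other NeuroD1 negative pair. Alternatives used DESeq2 1.42.0, limma 3.58.1 voom, other scalings and filters, the compared groups alone, a replicate block, no mt-Rnr1 and mt-Rnr2, and each library left out. The fit was tested on simulated counts. Some items are not reported here. Named genes were all 5 receptors, both ligands, up to 3 called genes per pathway list by size of change, and the 3 most similar genes of each tested receptor; called genes of these lists between the positive populations, Adcy1 in the NeuroD1 comparison, Slc39a11 and the markers named for their levels were added after their values were seen. The members and lists were chosen with earlier results of these data known. Intervals beside edgeR differences come from the fit and cover the spread between libraries; floors and Clopper-Pearson intervals cover counting error only, as amplified reads are not independent molecules.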

Additional observations from a re-analysis of the deposited data

How the results depend on the processing

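Sstr1 and Sstr5 passed in the NeuroD1 comparison under every alternative tried, at 4.66 to 5.41 and 4.75 to 5.29 with a library left out. Sstr2 ranged over 3.80 to 4.82 and Sstr3 over 3.82 to 5.18, and 2 to 4 receptors were called. In the Glu comparison 2 receptors were called, 1 with plain library totals, 0 in limma voom, 0 with the compared groups alone and 0 to 2 with a library left out. Sstr3 was at 4.81 in limma voom (adjusted p = 0.110), 6.32 with the groups alone (0.0682) and 5.33 to 8.03 with a library left out; Sstr5 was at 2.63 with plain totals (0.0615), 2.83 in limma voom (0.0600), 2.87 with the groups alone (0.172) and 2.54 to 3.33. Between the positive populations 1 receptor was called, 0 with plain totals, 2 in DESeq2 and 0 to 2 with a library left out. Sstr1 was at 2.64 with plain totals (0.0508) and 2.69 to 3.56, and Sstr5 at 1.61 in DESeq2 (0.0461) and 1.25 to 2.02. Signs turned only for values that had not passed: Sstr1 between the negative populations (-0.24 with plain totals, -0.38 to 1.16 with a library left out), Sstr2 there (-0.22 to 1.23) and in the interaction (-0.36 to 2.49), and Sst in the Glu comparison (-0.94 to 0.46, the latter without Glu_negative_4665). Plain totals moved the median of all genes to -0.28, -0.19 and -0.51 in the NeuroD1, Glu and positive comparisons, and the share of calls that were higher from 46.3% to 31.5%, 63.6% to 42.4% and 39.1% to 19.3%; upper quartile scaling gave 49.0% in the Glu comparison. They also moved Sstr5 in Glu negative cells to 0.754 CPM per kb. Of 24 named pathway genes in the Glu comparison, 14 lost their call without Glu_negative_4665 and 13 without Glu_negative_5254; of 28 in the NeuroD1 comparison, 4 to 6 did without each NeuroD1 library. Deviations of same-numbered libraries correlated at 0.0098 to 0.046, and those of differently numbered ones at -0.042 to 0.020. As they were centred within groups of 2 or 3 libraries, they cannot settle whether library numbers pair the samples. A replicate block left 1 receptor called in the Glu comparison, with Sstr3 at 5.34 (adjusted p = 0.0602), and 3 named pathway genes lost their call. Receptors that a stricter filter removed or DESeq2 left without an adjusted p have no value there. Depth limits all of this: the negative groups hold 0 to 18 counts of each receptor.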
